A study of Homo sapiens with 8 samples.

Results

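The mRNAs described here encode proteins that bind or unwind G-quadruplexes, and they were chosen by transcript identifier from a list of 9 genes. Of the 9 identifiers, 8 were listed in both deposited tables, among 38314 transcripts in all. The 8 were the transcripts of DHX9, DDX5, NCL, EWSR1, SFPQ, HNRNPA1, HNRNPA2B1 and CNBP. The identifier for DHX36, ENST00000496811, was listed in neither table, so that mRNA was not analysed here. The tables hold identifiers only, and the pairing of identifier and gene came with the list.

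RNA structure was probed in HEK293T cells, an established line from human embryonic kidney, by the assay that the labels name SHALiPE-seq. The cells were either controls or had a knockdown of TDP-43. TDP-43 is an RNA-binding protein that acts in splicing and mRNA metabolism. How the knockdown was made is not given in the sources used here. Cells of each condition were exposed to 100 mM NAI, which acylates flexible nucleotides and stops reverse transcription, or to 5% DMSO as the unprobed background, for 15 min at 37 °C. The 8 libraries comprise 2 NAI and 2 DMSO replicates of the controls and as many of the knockdown cells. Each table gives 1 combined value per transcript for control or knockdown. The values are the average, the standard deviation (SD) and the maximum of reactivity along the transcript, on a scale that is not stated, and the Gini index of reactivity. The index is 0 where all positions react alike and 1 where a few positions carry all the reactivity. Read depth and replicate spread are unknown for these combined values, so no difference below could be tested, and every comparison is between 2 numbers without an error.

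A G-quadruplex is a stack of guanine tetrads that forms in guanine-rich RNA or DNA. In cells such folds are bound by proteins with RGG repeats, RNA recognition motifs or zinc knuckles, and are opened by helicases of the DEAH and DEAD families. In mRNAs they are known to influence splicing, translation and decay. The measurements here concern the mRNAs that encode these proteins, not the proteins or the folds they bind.

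All 8 mRNAs had a higher average reactivity in TDP-43 knockdown than in control, and all 8 had a lower Gini index, so their reactivity was both higher and more evenly spread. The Gini differences ran from -0.181 for HNRNPA1 to -0.00008 for DHX9, which is close to no difference. Over the 8 mRNAs the median of the average reactivity was 0.284 in control and 0.409 in knockdown, against 0.190 and 0.185 over all 38314 transcripts. The median Gini index of the 8 was 0.656 in control and 0.609 in knockdown, while over all transcripts it was 0.837 and 0.855. Across all transcripts 49.5% had a higher average in knockdown, 36.2% had a lower Gini index and 30.9% had both. The coefficient of variation, SD over average, was also lower in all 8, against 36.4% of all transcripts. The maximum divided by the average was lower in 7 of the 8, all but DHX9, against 40.1%.

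These 8 mRNAs were among the most reactive and most evenly reactive transcripts of the control before any comparison with the knockdown. Each lay in the 20% of transcripts with the highest control average, which began at 0.238, and each lay in the 20% with the lowest control Gini index, which ended at 0.731. Within that highest 20% by control average, 88% of 7663 transcripts had a higher average in knockdown and 74.6% had a lower Gini index. Only 24.9% of them had a higher coefficient of variation, so it was lower in most. For the maximum over the average the share of that set was not counted. The shared direction of the 8 is therefore close to what most transcripts of their reactivity showed. None of the 8 reached the ceiling of 7 at which maxima stop in the tables, a value reached by 10.9% of control transcripts and 12.6% of knockdown transcripts.

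**Figure D1:**
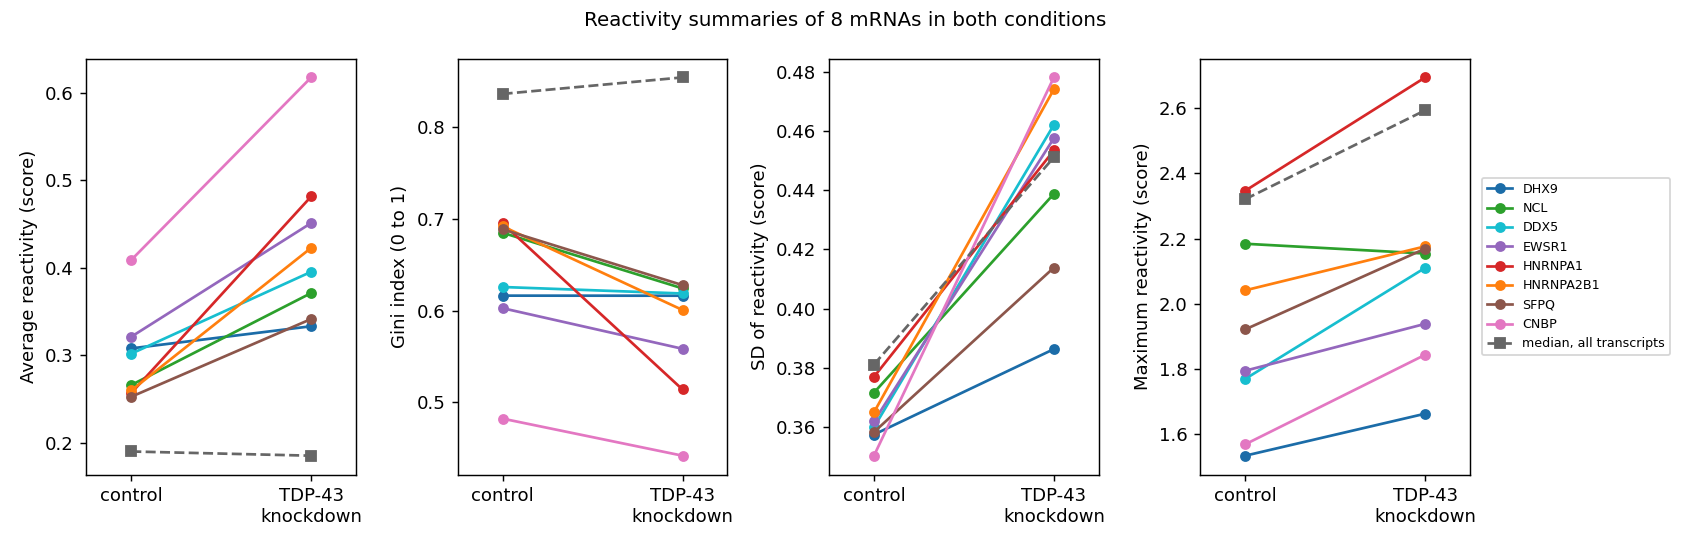
Average, Gini index, SD and maximum of reactivity for the 8 mRNAs in control and TDP-43 knockdown, 1 combined value per condition, with the median of all transcripts as a dashed grey line. On the deposited scale averages and SDs are higher in knockdown for all 8, Gini indices are lower for all 8, and the maximum is lower for NCL alone.

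The helicase mRNAs differed least in evenness. DHX9, also called RNA helicase A, unwinds RNA duplexes and G-quadruplexes. Its transcript, ENST00000367549.4, averaged a reactivity of 0.308 in control against 0.333 in knockdown, a ratio of 1.08. The Gini index stood at 0.617 in control against 0.616 in knockdown, the smallest difference of the 8. The SD went from 0.357 to 0.386 and the maximum from 1.53 to 1.66, so that average, SD and maximum were each about 8% higher (8.21%, 8.07% and 8.41%). The coefficient of variation, which a common scale factor cannot change, was 1.16 in both conditions. The 3 scale-dependent summaries of DHX9 thus differed by nearly the same factor.

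DDX5 encodes a DEAD-box helicase that works with splicing and transcription factors. Its transcript, ENST00000225792.10, started close to DHX9, with a control average of 0.302, and reached 0.396 in knockdown, a ratio of 1.31. Its SD had a similar ratio of 1.28, from 0.360 to 0.462, and its Gini index went from 0.626 to 0.619. The maximum went from 1.77 to 2.11, 19.3% higher, which was the largest relative difference in maximum among the 8. DHX9 and DDX5 were thus alike in both measures in control and in the Gini index in knockdown, and set apart by the average in knockdown.

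The hnRNP mRNAs had the largest ratios of averages and the largest differences in Gini index of the 8. HNRNPA1 encodes a splicing regulator whose RNA recognition motifs can open telomeric G-quadruplexes, and HNRNPA2B1 encodes its close relative, which also takes part in RNA transport. The HNRNPA1 transcript, ENST00000340913.10, averaged 0.257 in control against 0.482 in knockdown, 1.87-fold higher. That ratio ranked 830th from the highest of 38314 transcripts. Its Gini index went from 0.695 to 0.514, a difference of -0.181 that ranked 155th from the lowest. Its place among all transcripts by evenness moved from percentile 11.02 of the Gini index in control to 1.67 in knockdown, where a low percentile means more even.

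The SD of HNRNPA1 increased less than its average, from 0.377 to 0.453, and its maximum went from 2.35 to 2.70. The coefficient of variation accordingly went from 1.47 to 0.942, a change of -35.8%. From the average and the SD follows a lower bound on the share of positions that carry any reactivity. For HNRNPA1 this bound was 31.7% of positions in control and 53.0% in knockdown. That increase in the bound ranked 141st from the highest of all transcripts. The bound follows from the coefficient of variation alone, so it is the same result in another form. The share of reactive positions itself is unknown in both conditions.

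The HNRNPA2B1 transcript, ENST00000354667.8, was almost the same as HNRNPA1 in control, with an average of 0.260 and a Gini index of 0.692. In knockdown its average was 0.423, 1.63-fold higher, and its Gini index was 0.601. The difference in Gini index was -0.091, so the mRNAs of this pair, alike in control, lay apart in knockdown. The SD went from 0.365 to 0.474 and the maximum from 2.04 to 2.18, while the bound on reactive positions went from 33.7% to 44.3%. HNRNPA1 has many processed copies in the genome and HNRNPA2B1 has many isoforms, and how reads shared by such copies or isoforms were assigned is not given in the sources used here.

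**Figure D2:**
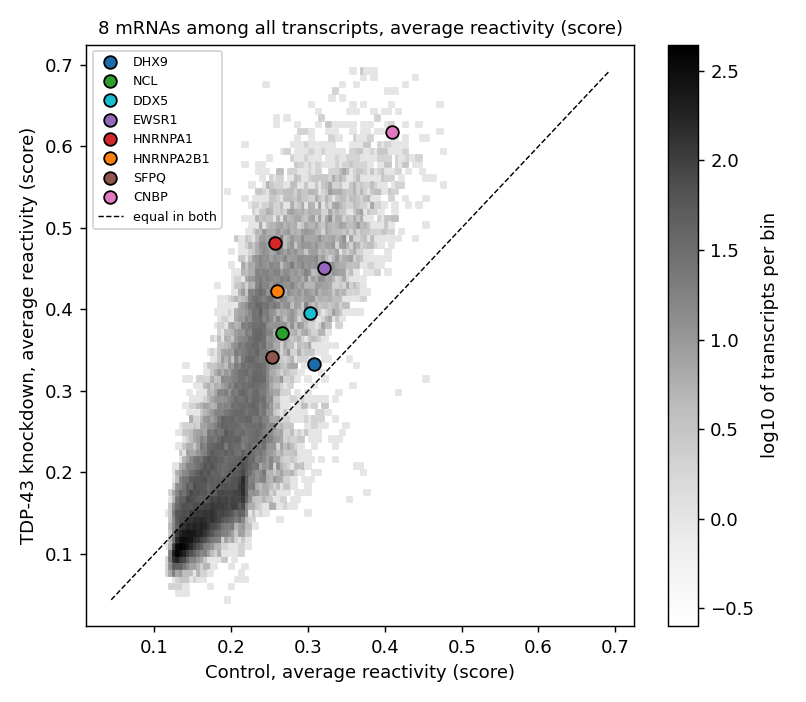
Average reactivity in control (x axis) and TDP-43 knockdown (y axis), both as deposited scores, for the 8 mRNAs in colour over all 38314 transcripts in grey, where darker bins hold more transcripts. All 8 lie above the dashed line of equality; HNRNPA1 is farthest above it for its control level and DHX9 is nearest to it.

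NCL, EWSR1 and SFPQ lay between these extremes. NCL encodes nucleolin, an abundant nucleolar protein of ribosome synthesis that binds G-quadruplexes in DNA and RNA. Its transcript, ENST00000322723.9, averaged 0.266 in control against 0.371 in knockdown, a ratio of 1.39, and its Gini index went from 0.685 to 0.624. NCL was the exception in the maximum, which was 2.18 in control and 2.15 in knockdown. The maximum of the other 7 was higher in knockdown, against 60.3% of all transcripts and 81.3% of those in the highest 20% by control average. The NCL average was higher without a higher peak value, and the bound on reactive positions went from 33.9% to 41.7%.

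SFPQ encodes a splicing factor of nuclear paraspeckles. The SFPQ transcript, ENST00000357214.6, had the lowest control average of the 8, 0.253, and 0.342 in knockdown, a ratio of 1.35. Its Gini index was 0.689 and 0.628, a difference of -0.061 that equals that of NCL to the printed digits. Its SD went from 0.358 to 0.414 and its maximum from 1.92 to 2.17.

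EWSR1 encodes an RNA-binding protein whose RGG repeats bind G-quadruplexes. Its transcript, ENST00000397938.6, had an average of 0.321 in control, below CNBP alone, and in knockdown it stood at 0.451, a ratio of 1.40, behind CNBP and HNRNPA1. Its Gini index was 0.603 and 0.559, its SD 0.362 and 0.458, and its maximum 1.79 and 1.94. EWSR1, NCL and SFPQ thus had ratios between 1.35 and 1.40 from different control levels.

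CNBP was the most reactive of the 8 in both conditions. It encodes a small zinc-knuckle protein that binds guanine-rich single strands and keeps G-quadruplexes in mRNAs unfolded. Its transcript, ENST00000422453.6, averaged 0.409 in control, 79th from the highest of 38314, and 0.618 in knockdown, 61st from the highest, a ratio of 1.51. Its Gini index of 0.482 in control was 80th from the lowest, and 0.442 in knockdown was 77th from the lowest. The control SD of 0.350 lay at percentile 1.52 of all transcripts, and the knockdown SD of 0.478 at percentile 58.9. The SD of CNBP was the lowest of the 8 in control and the highest in knockdown. At least 57.7% of its positions carried reactivity in control and at least 62.5% in knockdown, and its largest single value was 3.83 times the average in control and 2.98 times in knockdown. CNBP kept its rank as one of the most evenly reactive transcripts while its average was 51.0% higher, and its average lay at percentile 99.8 in both conditions.

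**Figure D3:**
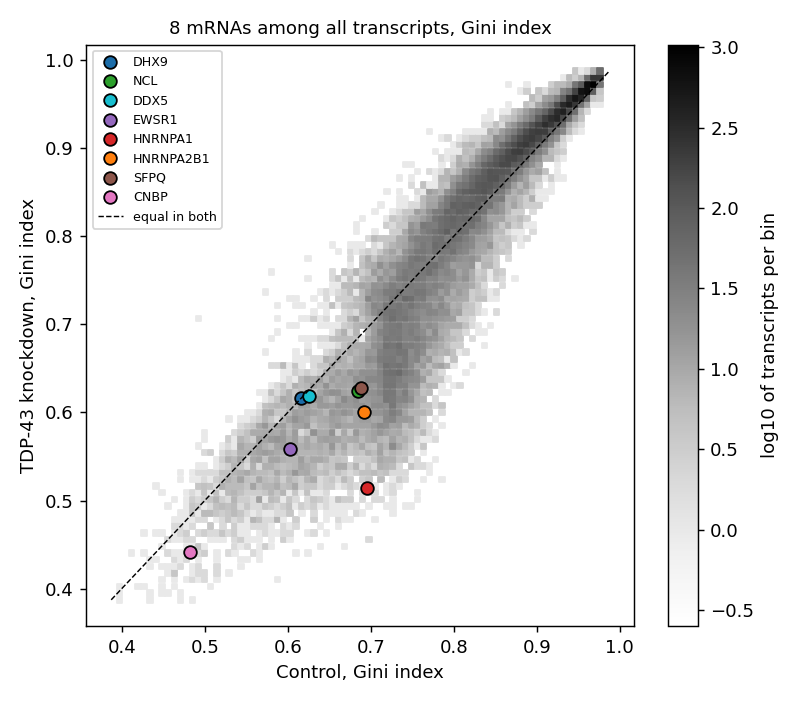
Gini index of reactivity in control (x axis) and TDP-43 knockdown (y axis), from 0 (even) to 1 (uneven), for the 8 mRNAs in colour over all transcripts in grey. DHX9 and DDX5 lie on or just under the dashed line of equality, CNBP lies at the low end of both axes, and HNRNPA1 lies at the lower edge of the cloud for its control value.

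The 8 mRNAs were spread more widely by average reactivity in knockdown than in control, and slightly less widely by evenness. The highest average over the lowest was 1.62 in control, with CNBP over SFPQ, and 1.85 in knockdown, with CNBP over DHX9. HNRNPA1, HNRNPA2B1, NCL and SFPQ lay between 0.253 and 0.266 in control and fanned out to 0.482, 0.423, 0.371 and 0.342 in knockdown. The order of the 8 changed too. DHX9 was number 3 from the highest in control and the lowest in knockdown, and HNRNPA1 was number 7 in control and number 2 in knockdown. SDs were within a ratio of 1.08 of each other in control and 1.24 in knockdown. The highest Gini index over the lowest was 1.44 in control and 1.42 in knockdown, and for the coefficient of variation these ratios were 1.71 and 1.56. Without a replicate error, neighbours in these orders cannot be said to differ.

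By fold, 3 of the 8 were at least 1.5-fold higher in knockdown, HNRNPA1, HNRNPA2B1 and CNBP, where 15.1% of all transcripts were, and 43% of those in the highest 20% by control average. None was at least 1.5-fold lower, as were 2.39% of all transcripts. At 1.2-fold 7 of the 8 were higher, DHX9 being the exception, against 34.7% of all transcripts. The median ratio in the highest 20% by control average was 1.45, so most of that set also passed 1.2-fold. At 2-fold none was higher, against 0.851%. Differences of over 10% of the mean of both conditions were fewer for evenness than for level. The average was higher by more than that in 7 of the 8, all but DHX9, against 42.2% of all transcripts and most of that highest 20%. The Gini index was lower by more than that in 2 of the 8, HNRNPA1 and HNRNPA2B1, against 12.5% of all transcripts. In that highest 20% by control average, 25% of the Gini differences were at or below -0.079. The share of that set past the 10% cut was not counted, so 2 of 8 cannot be called high for it.

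On the deposited scale the SD was higher in knockdown in all 8, against 55.1% of all transcripts and 89.6% of the highest 20%. It was higher by over 10% in 7 of the 8, against 42.3% of all transcripts. The median ratio of SDs in the highest 20% was 1.28, so most of that set passed 10% as well. The median SD over all transcripts was itself higher in knockdown, 0.451 against 0.381 in control. With each SD divided by the median SD of its condition, it was higher in 5 of the 8, against 34.4% of all transcripts. Of the 8, DHX9, NCL and SFPQ were lower. In the highest 20% the median log2 ratio of SDs was 0.357, above the 0.243 between the median SDs of all transcripts. Most of that set was therefore higher after the division too. This division compares each SD with the median SD and is not a common rescaling of average, SD and maximum. The maximum was higher by over 10% in 4 of the 8, DDX5, HNRNPA1, SFPQ and CNBP, against 41.9% of all transcripts. With each maximum divided by the median maximum of its condition, 2.32 in control and 2.59 in knockdown, it was higher in the same 4, against 39.9%. In the highest 20% the median ratio of maxima was 1.17. Its log2, 0.230, was above the 0.160 between the median maxima of all transcripts. Most of that set therefore passed both cuts, so 4 of 8 is not a high count for it.

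Against transcripts of high control average, the ratios of the 8 mRNAs covered a wide range of percentiles, with HNRNPA1 and DHX9 at its ends. Among the 7663 transcripts in the highest 20%, the median ratio of knockdown over control was 1.45. In that set the ratio of HNRNPA1 lay at percentile 93.9 and that of HNRNPA2B1 at 73.8. CNBP lay at 58.4, EWSR1 at 45.0, NCL at 43.5, SFPQ at 37.1 and DDX5 at 32.0. DHX9 lay at percentile 15.4. The other 6 thus fell between percentiles 32.0 and 73.8, and 5 of the 8 had ratios below the median of this set. The set is not centred on each mRNA, as CNBP lay near the top of it by control average. The control average enters both this grouping and the ratio.

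The Gini index gave the same ends. In the same 7663 transcripts the median difference was -0.038. HNRNPA1 lay at percentile 0.855, so that fewer than 1 in 100 of these transcripts became more even by as much. HNRNPA2B1 followed at percentile 18.6. SFPQ and NCL stood at 35.7 and 35.9, and EWSR1 and CNBP at 45.9 and 48.3. DDX5 and DHX9 were at 70.3 and 74.6, on the side of transcripts whose evenness differed little or went the other way.

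Against transcripts of similar length the 8 looked different. The number of positions behind each average, recovered from the deposited digits, was 4473 for DHX9, 3904 for NCL, 3720 for SFPQ, 3664 for DDX5, 3644 for HNRNPA2B1, 2634 for EWSR1, 1822 for HNRNPA1 and 1644 for CNBP. Transcripts within a ratio of 0.8 of the HNRNPA2B1 number, in either direction, numbered 3969, and 84.8% of them had a higher Gini index in knockdown. HNRNPA2B1 lay at percentile 0.491 of the Gini difference in that set. Among transcripts of their own length NCL lay at percentile 1.59, SFPQ at 1.77, EWSR1 at 8.22, DDX5 at 11.4 and DHX9 at 12.1. HNRNPA1 lay at 0.0264 among 5681 transcripts, and CNBP at 23.2 among 5413. The 6 mRNAs other than HNRNPA1 and CNBP were thus long transcripts that did not become more uneven, in a length range where at least 76.1% of transcripts did. The high control averages of the 8, given above, move with this result, and their part in it was not tested.

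**Figure D4:**
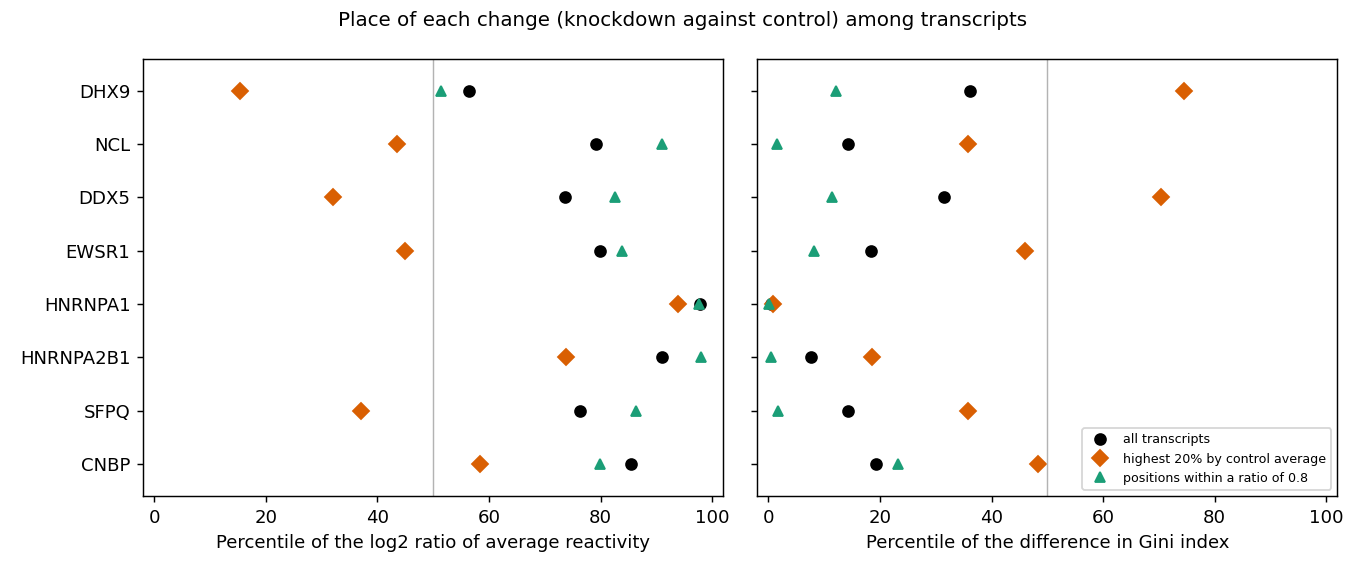
Percentile of each mRNA's knockdown-over-control change among transcripts, for the log2 ratio of average reactivity (left) and the difference in Gini index (right), with black circles for all transcripts, orange diamonds for the highest 20% by control average and green triangles for transcripts whose number of positions was within a ratio of 0.8 in either direction. HNRNPA1 lies above percentile 93 of the ratio and below percentile 1 of the Gini difference in all 3 sets, while DHX9 goes from percentile 56.3 of the ratio among all transcripts to 15.4 in the highest 20% by control average.

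Likeness was measured as the distance between transcripts over the percentile ranks of the 4 measures in both conditions, 8 values in all. The transcript nearest to HNRNPA1, the mRNA with the largest ratio, was ENST00000323345.11. Over 867 positions it averaged 0.250 in control against 0.462 in knockdown, and its Gini index went from 0.709 to 0.554. The next was ENST00000428832.2, where over 1196 positions the average went from 0.302 to 0.518 and the Gini index from 0.632 to 0.497. The tables do not pair these identifiers with genes. Among the 8 mRNAs the closest pair was DDX5 and EWSR1, where EWSR1 was the 169th nearest of all transcripts to DDX5 and DDX5 the 237th nearest to EWSR1. The mRNA nearest to DHX9 among the 8 was EWSR1, the 1447th nearest of the 38314 transcripts. For each of the 8, the nearest other mRNA of the list lay between places 169 and 1447. Other transcripts were thus nearer to each of the 8, though these places are all toward the near end of the order.

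In the RefSeq annotation of GRCh38.p14, DHX9 spans chr1:182839347-182887982 and SFPQ chr1:35176380-35193145. NCL spans chr2:231453531-231464484, CNBP chr3:129167827-129183896 and HNRNPA2B1 chr7:26189927-26200746. HNRNPA1 spans chr12:54280726-54287087, DDX5 chr17:64498254-64506866 and EWSR1 chr22:29268268-29300521. All are protein-coding genes at separate loci, and the summaries cover each whole transcript, so no value can be placed in a UTR, an exon or a guanine-rich stretch.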

How the data were processed

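Per the labels' protocols, poly(A) RNA (500 ng per library) was fragmented to about 300 nt and reverse transcribed with 150 mM LiCl. Build hg38 and the tools Bowtie2 2.3.3.1 and cutadapt 1.15 come from the submitters' processing notes. For the step from reads to reactivities and any coverage cutoff, the method is not given in the sources used here. Per condition the authors deposited, per the file headers, 3 summaries as a score (average, SD, maximum) and the Gini index as a fraction, with replicates combined. The prefix of the knockdown columns is not explained.

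Values were used as deposited. Percentiles are mid-ranks over all transcripts. Positions are the smallest number that makes both averages whole thousandths and both Gini indices whole multiples. In 400 simulated transcripts it was exact in 97.75%, and for the 8 mRNAs the implied sums of squares were whole in both tables to within 0.05 millionths. The lower bound on reactive positions is the squared average over the sum of squared average and variance. All members are named. The members, measures and alternatives were chosen with earlier results of these data known. Other genes of these families were not analysed here because no table paired their identifiers. Transcript sequences were not used here. Python 3.11.15, numpy 2.4.6, pandas 2.3.3 and matplotlib 3.10.9 were used.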

Additional observations from a re-analysis of the deposited data

How the results depend on the processing

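Each measure was also divided by its own median over all transcripts in each condition. That division raises every ratio of averages and lowers every ratio of Gini indices. It could therefore not turn the direction of either in the 8 mRNAs and is no check of it. For changes over 10% only, 7 of 8 averages were higher (42.2% of all transcripts) and 2 of 8 Gini indices were lower (12.5%). In place of the Gini index, chosen after seeing the data, the coefficient of variation was lower in all 8 and the maximum over average in 7. SD and maximum changed more when set against their own medians. Divided by the median SD, SD was higher in 5 of 8 (34.4% of all transcripts) rather than 8. The median log2 ratio of SD was then 0.059 rather than 0.30. It turned to -0.13 for DHX9, -0.0036 for NCL and -0.035 for SFPQ. Divided by the median maximum, the maximum was higher in 4 of 8 (39.9% of all transcripts) rather than 7. Its median log2 ratio was then -0.015 rather than 0.15. It turned to -0.044 for DHX9, -0.049 for EWSR1 and -0.068 for HNRNPA2B1. For changes over 10% only, without that division, the maximum was also higher in 4 of 8 (41.9%). Log2(value + 0.1) brought the median log2 ratio of the average from 0.48 to 0.38, as a pseudocount does by construction. The count at least 1.5-fold higher, 3, was 7 at 1.2-fold and 0 at 2-fold. After the filter on the lowest 25% of transcripts by level, DHX9 fell from percentile 56.3 to 42.8 of the ratio of averages. HNRNPA1 stayed between 97.1 and 98.3 over the 4 other sets of transcripts. No paired analysis was possible because each condition has 1 combined value per transcript, and for that reason no replicate could be left out. Depth is unknown.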
